A study of Mus musculus and Homo sapiens with 41 samples.

Results

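The basic helix-loop-helix (HLH) factors known as E proteins and their Id antagonists were described in RNA-seq data from mouse granulocyte-monocyte progenitors (GMPs) and from the 416b myeloid cell line. The 7 genes were chosen by symbol. They are the E proteins Tcf3, Tcf4 and Tcf12, the Id genes Id1, Id2 and Id3, and Lyl1, an HLH factor of blood cells that pairs with E proteins. All 7 were present among the 53756 genes of the GMP table, and 6 of them, all but Id3, among the 13237 named genes of the 416b table. The study asked how PLZF, a zinc finger transcription factor encoded by Zbtb16, acts on gene activity in myeloid progenitors. The GMPs were lineage negative, Cd45+, c-Kit+, Sca-1-, Cd34+, Fc gamma receptor+ bone marrow cells of C57BL/6 background, wild type (WT) or homozygous for the luxoid mutation of Zbtb16 (Zbtb16lu/lu, the mutant). Per the methods of the study they were sorted from lethally irradiated C57BL/6 recipients weeks after a transplant of total bone marrow of either genotype, so that both groups share irradiation and regeneration. Donors and recipients carried different Cd45 alleles. The age of the donors was not given in the sources used here. Each genotype had 2 libraries in the table. The 416b cells carry Cd34 and were transduced with a lentivirus for PLZF-Flag or with the Empty vector and sorted for the GFP of the vector, with 1 library per condition.

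E proteins bind the short DNA word CANNTG, the E-box, as pairs with one another or with tissue-restricted HLH factors such as Tal1 and Lyl1, and together with Lmo2, Ldb1 and Gata factors they form larger complexes in blood cells. Id proteins have the HLH pairing surface but lack the basic stretch that contacts DNA, so an E protein held by an Id protein cannot bind an E-box. In bone marrow, Tcf3 and Tcf12 are known for their role in lymphoid specification, Tcf4 for the identity of plasmacytoid dendritic cells, and Id2 is found in several innate lineages. Id genes are known targets of BMP signalling, and Id proteins are short-lived and degraded after ubiquitination. Of these genes the data give transcript levels only.

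Values in both tables are normalized counts, that is, reads per gene divided by a scaling factor of the library. They summed to between 38562940 and 40130730 in the 4 GMP libraries. The column names carry a number tag whose meaning they do not state, and 1 tag occurs in both genotypes. The libraries with the shared tag are called WT-A and lu/lu-A, and the other library of each genotype WT-B and lu/lu-B. Values are given in the order A, B throughout. Zbtb16 itself was at 705 and 828 in the WT libraries. In Zbtb16lu/lu it was at 369 and 269, a log2 fold change of -1.28 (SE 0.20) that missed the threshold (adjusted p = 0.299, limma). The WT libraries stood further apart than the Zbtb16lu/lu libraries. The median absolute log2 difference over tested genes was 0.284 within WT, 0.152 within Zbtb16lu/lu and 0.245 between WT-A and lu/lu-A. Defining GMP transcripts were abundant, with Mpo between 477330 and 552000 and Elane between 36604 and 48674. In 416b cells, where Cd34 was at 11059 and 8823, Mpo was at 12.1 and 3.30 and Elane was not listed, while the megakaryocyte transcript Itga2b was at 22446 and 22145. Other granule transcripts of GMPs were present in the cell line, Ctsg at 2318 and 1675 and Prtn3 at 470 and 435.

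As E-boxes are the sites at which these proteins act, the stretches before the start sites of 3 members with a CANNTG word are shown. The RefSeq promoter table for GRCm38.p6 held 5 of the 7 members (Tcf3, Tcf12, Id2, Id3 and Lyl1). Each stretch is taken from the 250 bases before the RefSeq start nearest to the gene's annotated 5′ end and stops before the first exon base of that start in GENCODE M21. They lie on the minus strand at chr10:80433648-80433885 (Tcf3), chr9:72111872-72112069 (Tcf12) and chr12:25096254-25096342 (Id2, inside an intron of a longer annotated Id2 transcript). Capitals mark the CANNTG match.
Tcf3: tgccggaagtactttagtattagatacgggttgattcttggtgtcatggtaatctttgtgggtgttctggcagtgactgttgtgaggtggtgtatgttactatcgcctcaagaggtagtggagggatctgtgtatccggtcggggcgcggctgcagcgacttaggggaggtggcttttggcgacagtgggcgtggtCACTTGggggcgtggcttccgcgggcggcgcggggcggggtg
Tcf12: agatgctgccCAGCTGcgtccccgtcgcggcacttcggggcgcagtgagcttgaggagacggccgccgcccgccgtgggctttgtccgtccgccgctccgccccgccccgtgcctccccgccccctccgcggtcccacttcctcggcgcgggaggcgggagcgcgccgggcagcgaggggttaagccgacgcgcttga
Id2: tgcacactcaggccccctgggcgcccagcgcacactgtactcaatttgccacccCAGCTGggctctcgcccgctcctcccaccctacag

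CANNTG reads the same class of word on both strands, and it was present in 66.2% of 32851 promoter windows of 250 bases, so a match is common. The Tcf12 and Id2 matches are CAGCTG, which 4271 of the windows held. The Tcf3 match is CACTTG. The Lyl1 window held 1 match of the CAGGTG kind (read as CAGGTG or CACCTG, found in 17.2% of windows), and the Id3 window held 0 matches to CANNTG. A match is only a run of letters, and binding was not measured here.

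Levels in GMPs, expressed per kb of exon so that genes can be compared, differed widely between the members. Lyl1 was the highest member, with 2710 and 2343 normalized counts per kb in WT against 3105 and 3196 in the mutant, above at least 93.7% of tested genes in every library. Tcf3 followed at 838.5 and 735 per kb in WT against 1012 and 1061 in the mutant, and then Tcf12 at 239 and 278 against 215 and 228. Id1 (96.6 to 134 per kb over the 4 libraries), Id2 (43.1 to 109) and Tcf4 (56.4 to 78.4) overlapped their neighbours in this order. Id3 was nearly silent at 0 to 2.87 per kb. The place of Tcf4 and Tcf12 rests on the length used, since their exons add up to 27.4 and 15.5 kb over all annotated transcripts but their median protein-coding transcript has 1841.5 and 2257 bases. Per kb of the median coding transcript, Tcf12 (1479 to 1910 over the 4 libraries) lay above Tcf3 (1047 to 1512) and Tcf4 (838 to 1165) in every library. Tcf3 lay above Tcf4 in every library but WT-B. These E protein genes all lay above Id1 (107 to 148) and Id2 (82.8 to 209).

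**Figure D1:**
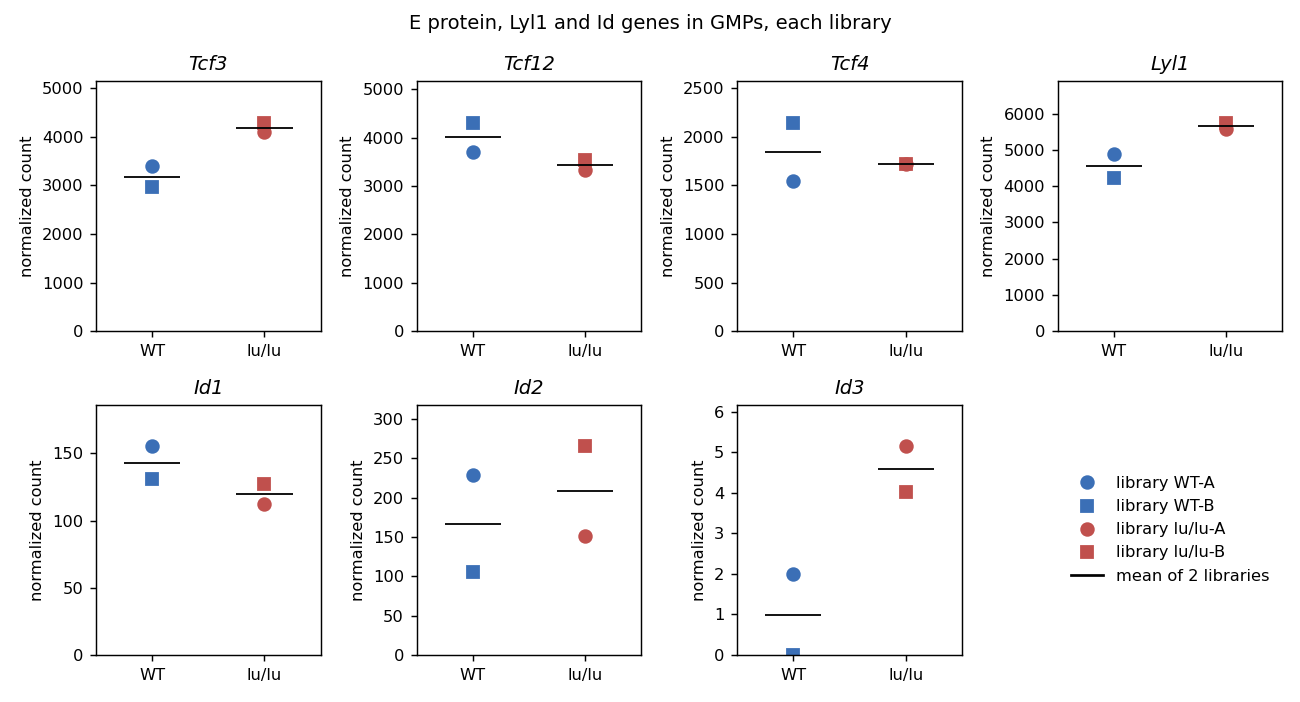
Normalized counts (linear vertical axes from 0) of the 7 genes in each GMP library, WT in blue and Zbtb16lu/lu in red, with the mean of the 2 libraries of a genotype as a line. Tcf3 and Lyl1 were higher in both Zbtb16lu/lu libraries, Tcf12 and Id1 were lower in both, Tcf4 and Id2 overlapped, and Id3 stayed at or under 5.14.

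The GMP comparison asks whether E protein and Id transcripts differ when PLZF is mutated. Of the 6 members with enough signal to test, 0 passed the adjusted p threshold of 0.08 in limma, as did 0.0% of all 20531 tested genes. On the recovered reads, edgeR's quasi-likelihood test also called 0 genes, and DESeq2 called 161 genes higher and 59 lower (1.7% of the 12968 genes to which it gave an adjusted p) and 0 members. DESeq2 left 7563 genes, Id1 among them, without an adjusted p. At an unadjusted p under 0.05, limma called 2 members higher (Tcf3 and Lyl1) and 0 lower, against 5.5% of all tested genes higher and 4.37% lower. Both Zbtb16lu/lu libraries lay above both WT libraries for 2 members (21.7% of all tested genes) and below both for 2 members, Tcf12 and Id1 (22.1% of all tested genes). With 2 libraries per genotype the smallest two-sided p of an exact permutation test is 0.333, so each gene is given by its libraries.

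Tcf3, which encodes the E proteins E12 and E47, had 3387 and 2969 normalized counts in WT, against 4088 and 4286 in the mutant (means 3178 ± 296 and 4187 ± 141, SD, n = 2). The genotypes did not overlap, and the log2 fold change was 0.40 (SE 0.12, adjusted p = 0.422, limma). The difference was 0.27 between the A libraries, which share a tag, and 0.53 between the B libraries, which do not. Tcf3 lies on the minus strand of chromosome 10 from 80409514 to 80433647 (GRCm38).

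Lyl1 had 4878 and 4217 normalized counts in WT, against 5589 and 5753 in the mutant (means 4547 ± 468 and 5671 ± 116, SD, n = 2). It was higher in both Zbtb16lu/lu libraries, by 0.32 on the log2 scale (SE 0.12, adjusted p = 0.468, limma), with 0.20 between the A libraries and 0.45 between the B libraries. Its exons share only 4 bases with those of Nfix, which lies on the opposite strand.

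Most markers of GMPs and monocytes also had a higher mean in the mutant, and 0 passed the threshold in limma. Of 14 GMP markers 13 had a higher mean (10090 of all 20531 tested genes), 7 without overlap (21.7% of all tested genes), with sums of 774090 and 763190 in WT against 880250 and 889820 in the mutant. Of 8 monocyte markers 7 had a higher mean, 5 without overlap, with sums of 43042 and 51808 in WT against 56258 and 60853 in the mutant. Their part in the values of Tcf3 and Lyl1 was not tested.

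The differences of Tcf3 and Lyl1 were also set beside base composition. Their exons have a GC content of 61.5% and 62.6%, and the 799 tested genes with a GC content above 60% had a median log2 fold change of 0.40, of which 56.6% were higher in both Zbtb16lu/lu libraries. The class medians rose step by step from -0.25 for genes of up to 40% GC to 0.17 for genes of 55 to 60% GC. Libraries of a genotype were compared as well. In the class above 60% the median was -0.30 for WT-B minus WT-A and 0.035 for lu/lu-B minus lu/lu-A. Between the genotypes it was 0.26 for lu/lu-A minus WT-A and 0.54 for lu/lu-B minus WT-B. With offsets for gene length and GC content fitted in each library, the log2 fold change of Tcf3 was 0.09 and that of Lyl1 was -0.031. Without offsets, Tcf3 (0.40) thus lay at the median of genes of like GC content and Lyl1 (0.32) below it. Whether the GC trend came from the libraries or from the genotype cannot be told apart here.

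**Figure D2:**
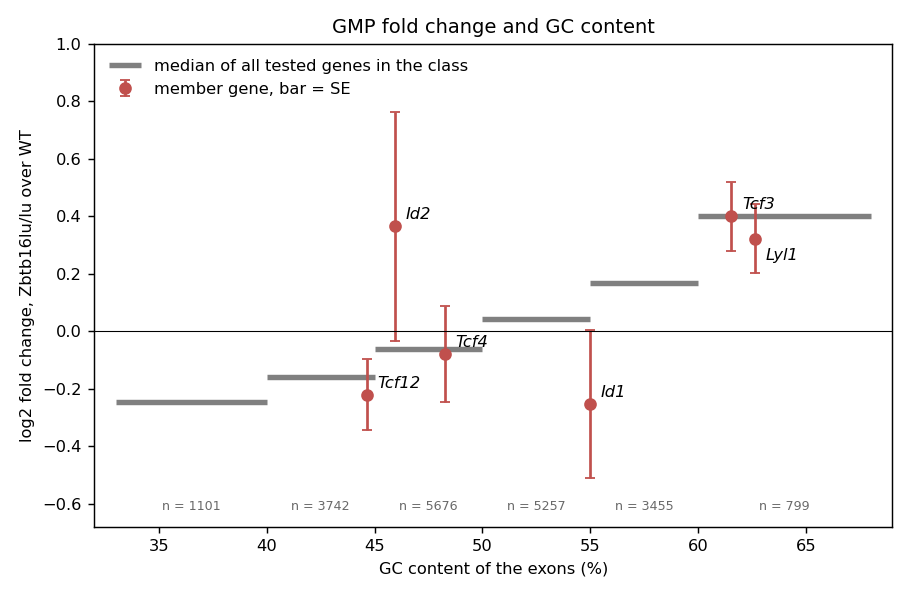
Log2 fold change in GMPs (Zbtb16lu/lu over WT, vertical axis) against the GC content of the exons in percent, with members as red points (bars, SE of the limma fit) and the median of all tested genes in 6 GC classes as grey lines, the outer classes being open-ended. Tcf3, Lyl1, Tcf12 and Tcf4 sit close to the line of their class, while Id2 lies above and Id1 below, each with a wide SE.

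Tcf12, the E protein HEB, went the other way. Its normalized counts were 3716 and 4311 in WT, against 3337 and 3534 in the mutant (means 4013 ± 421 and 3435 ± 139, SD, n = 2), and both Zbtb16lu/lu libraries lay below both WT libraries. The log2 fold change was -0.22 (SE 0.12, adjusted p = 0.568, limma), and it was -0.16 between the A libraries and -0.29 between the B libraries. Tcf12 has a GC content of 44.6%, and genes of 40 to 45% GC had a median of -0.16. With the offsets its value was -0.12. Tcf12 lies on the minus strand of chromosome 9 from 71842688 to 72111871.

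Tcf4, the E protein E2-2, had 1543 and 2146 normalized counts in WT, against 1724 and 1721 in the mutant. The Zbtb16lu/lu libraries fell between the WT libraries, and the log2 fold change of -0.08 (SE 0.17, adjusted p = 0.89, limma) was smaller than the gap of 0.48 within WT. The difference was 0.16 between the A and -0.32 between the B libraries. WT-B, the library with the most Tcf4, also had the highest sum of 10 erythroid and megakaryocyte markers (6945, against 2437 in WT-A and 2007 and 4162 in the mutant), whose part in the value was not tested. Markers of plasmacytoid dendritic cells, in which Tcf4 is known to be high, were near 0 for the defining Siglech (0.964 to 2.98 over the libraries). Of the 8 markers of these cells, 3 were tested. The summed counts of all 8, at 150 to 195 in WT against 264 to 282 in the mutant, came mainly from the interferon response gene Irf7.

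The Id genes were low. Id1 (chromosome 2, 152736251 to 152737410, plus strand) had 155 and 131 normalized counts in WT, against 112 and 127 in the mutant (means 143 ± 16.9 and 120 ± 10.9, SD, n = 2). The Zbtb16lu/lu libraries were lower without overlap (131 in WT-B against 127 in lu/lu-B), and the log2 fold change of -0.25 had an SE of 0.26 (adjusted p = 0.747, limma). Its value was -0.36 with the offsets, -0.47 between the A libraries and -0.041 between the B libraries. The 6 mast cell and basophil markers, whose progenitors can enter a GMP gate, summed to 9652 and 9384 in WT against 6635 and 8646 in the mutant. Of these, 6 of 6 were below WT on average (10439 of all 20531 tested genes), 2 without overlap (22.1% of all tested genes). Their part in the value of Id1 was not tested. In bulk RNA, fewer cells of a type and less RNA per cell cannot be told apart.

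Id2 (chromosome 12, 25093799 to 25097140, minus strand) was the most variable of the 6 tested members within both genotypes. It had 229 and 105 normalized counts in WT against 151 and 265 in the mutant, so that the genotypes overlapped and the gap within WT (1.11 on the log2 scale) exceeded the log2 fold change of 0.37 (SE 0.40, adjusted p = 0.764, limma). The log2 difference was -0.59 between the A libraries and 1.33 between the B libraries. The summed counts of 10 mature neutrophil markers, to which S100a8 and S100a9 gave the most, ranked the libraries in the same order, with 14171 and 6473 in WT against 10501 and 21023 in the mutant. The other 8 markers had another order. All 10 had a higher mean in Zbtb16lu/lu (10090 of all 20531 tested genes), and 6 of 10 were higher without overlap (21.7% of all tested genes). Among them the granule gene Ltf was at 56.7 and 11.6 in WT against 305 and 846 in the mutant, and Mmp9 was listed at 0 in WT-B. The part of such cells in the value of Id2 was not tested.

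Id3 (chromosome 4, 136143497 to 136145755, plus strand) was at 1.99 and 0 normalized counts in WT, against 5.14 and 4.01 in the mutant. Both Zbtb16lu/lu libraries lay above both WT libraries, on 0 to 5 reads per library. Id3 fell under the filter of at least 10 in 2 libraries and was not among the tested genes.

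**Figure D3:**
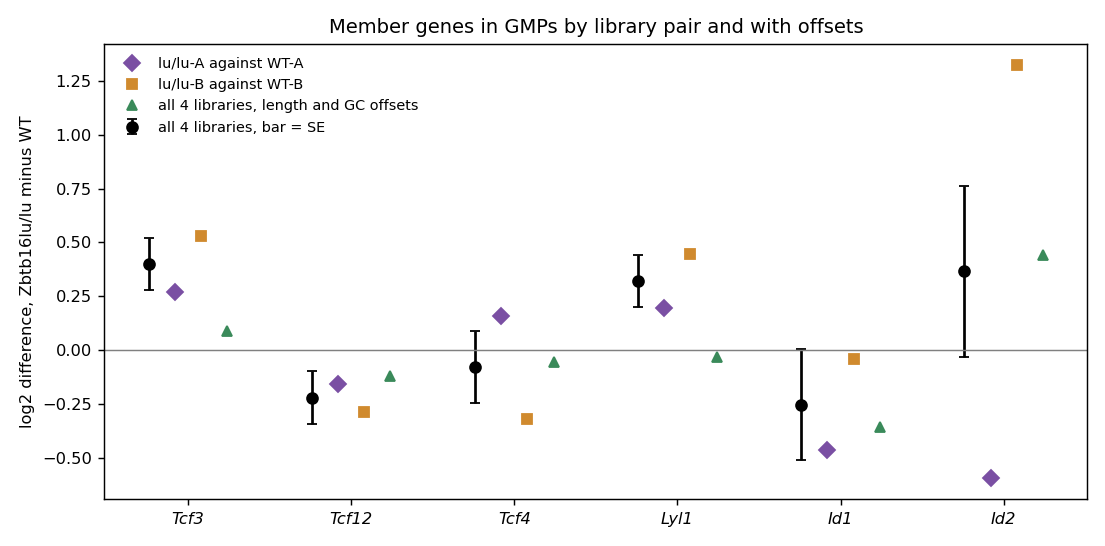
Log2 difference between Zbtb16lu/lu and WT GMPs for the 6 tested members from all 4 libraries (black, bars SE), from the A libraries (purple), from the B libraries (orange) and from all libraries with length and GC offsets (green). Tcf3 and Lyl1 moved close to 0 with the offsets, whereas Id2 ran from -0.59 to 1.33.

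The calls depended on single libraries. Without WT-A, limma called 4662 genes and 5 members (Tcf3, Tcf4, Tcf12, Id2 and Lyl1), and without WT-B it called 2749 genes and 1 member (Tcf3, adjusted p = 0.0545). Without lu/lu-B or lu/lu-A it called 1 and 64 genes and 0 members. In each of these fits the lone library is assumed to vary like the pair of the other genotype, and the Zbtb16lu/lu pair was the closer one.

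Other genes of the E protein network were examined from lists written for the purpose. No list had a gene past the threshold in limma. Of the 14 partners of the LMO2/LDB1 complex, 13 were tested, with 3 above WT without overlap (21.7% of all tested genes) and 5 below (22.1%), and a median log2 fold change of -0.07 against -0.01 for all tested genes. The adaptor Ssbp4 was highest in this list at 0.62 (0.19 with the length and GC offsets) and the erythroid factor Gata1 lowest at -0.42. Lmo2, the adaptor that joins Lyl1 to Ldb1, stayed between 9257 and 9982 normalized counts in all libraries, and Tal1, the closest relative of Lyl1, was at 1398 and 1496 in WT against 1204 and 1343 in the mutant.

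The 9 E protein co-regulators (acetyltransferases, ETO family corepressors and deacetylase partners) were all tested and had a median of -0.04, from -0.22 for Cbfa2t3 (-0.43 with the length and GC offsets) to 0.16 for Runx1t1, with 0 above WT without overlap and 1 below (21.7% and 22.1% of all tested genes). Of the 22 other HLH genes 14 were tested, with a median of 0.18, from -0.70 for Bhlha15 (Mist1) to 0.51 for Bhlhe40, and 5 lay above WT without overlap (21.7% of all tested genes) and 2 below (22.1%). The median of this list was -0.05 with the length and GC offsets. Id4, the remaining Id gene, was at 1.99 or less in every library.

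Upstream of the Id genes, 20 of 24 BMP and TGF-beta signalling genes were tested, and 6 were above WT without overlap and 4 below, against 21.7% and 22.1% of all tested genes. Their median was 0.06, from -0.22 for the ubiquitin ligase Smurf2 to 0.53 for the receptor Acvrl1 (-0.14 and 0.33 with the length and GC offsets). Of the BMP receptors, Bmpr1a was at 9.25 or less in every library, Acvr1 at 89.3 to 106 and Bmpr2 at 680 to 943 normalized counts. The ligand Bmp4 was at 4.01 or less in every library, while the BMP transducers Smad1 and Smad5 were present at 943 to 1039 and 2473 to 2913. The 6 genes that control the stability of Id proteins, such as the deubiquitinase Usp1 and the APC/C subunits, had a median of -0.12, from -0.23 for Cdc27 to 0.10 for Fzr1 (-0.06 and -0.16 with the length and GC offsets), with 1 above WT without overlap and 3 below (21.7% and 22.1% of all tested genes).

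Lymphoid genes that E proteins are known to activate were mostly silent, as 10 of 23 were tested. Ebf1 stayed at or under 9.03, Rag1 at or under 4.82 and Il7r at or under 10.6 normalized counts. Others in the list were well expressed, with Ikzf1 at 5063 to 5558, Cd79b at 1055 to 1270 and Bcl11a at 903 to 1330. The 10 tested genes had a median of 0.11, from -1.14 for Ikzf3 (17.9 and 20.3 in WT, 9.25 and 7.03 in the mutant) to 0.79 for Vpreb1, with 3 above WT without overlap and 1 below (21.7% and 22.1% of all tested genes). Notch1, a gene of T cell commitment, was at 2785 and 2896 in WT against 3734 and 3039 in the mutant, without overlap (0.25, adjusted p = 0.566, limma, and 0.068 with the length and GC offsets).

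Within the lists, the genes most like each member over the 4 GMP libraries were found from log2 values centred on each gene's mean, by the smallest maximum difference in any library. Tcf3 was closest to Lyl1 (0.053) and Elane (0.085), and Lyl1 to Hes6 (0.048) and Tcf3 (0.053). Tcf12 was closest to Smurf2 (0.03) and Tal1 (0.08), Tcf4 to Bmpr2 (0.06) and Mitf (0.10), and Id1 to Gata2 (0.04) and Lmo4 (0.07). Id2 was closest to the neutrophil gene S100a8 (0.08), and its next neighbour, Lmo1, was far off (0.36). With 4 libraries these are descriptions of library order only.

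In 416b cells the comparison asked what added PLZF does to the same genes. Zbtb16 was covered by 632 reads with the Empty vector and by 1538 with PLZF-Flag, and its log2 ratio was 2.73 (2.60 to 2.87, 95% interval). With 1 library per condition there was no test. Intervals are exact binomial (Clopper-Pearson) and cover counting error only, and depth on the listed genes was 54529333 reads with the Empty vector against 19995643 with PLZF-Flag. Of the 6 listed members 0 changed by 1 or more on the log2 scale, against 0.499% of 11835 genes upward and 0.913% downward. The interval lay above 0 for 3 members (16.1% of all genes) and below 0 for 2 members (15.9% of all genes).

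Id1 and Id2 were the members whose interval lay below 0. Id2 was covered by 415 reads with the Empty vector and by 89 with PLZF-Flag, which are 251 and 147 normalized counts. Its log2 ratio was -0.77 (-1.12 to -0.44, 95% interval). Only 1.78% of the genes had a ratio as low or lower. Id1 had 1572 and 492 reads, normalized counts of 951 and 813, and a ratio of -0.23 (-0.38 to -0.08), and 10.8% of genes were as low or lower. Id3 was not listed.

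The E protein genes and Lyl1 were close to even. Tcf3 had 6642 normalized counts with the Empty vector and 7041 with PLZF-Flag (0.08, 0.03 to 0.14), Tcf12 had 4014 and 4252 (0.08, 0.02 to 0.15), and Lyl1 had 9703 and 10384 (0.10, 0.06 to 0.14). These are folds of 1.06, 1.06 and 1.07, and ratios as high or higher were found for 23.1% to 26.2% of genes. Tcf4 had 1804 and 1776 normalized counts, and its interval of -0.12 to 0.08 included 0. The values of Tcf3, Tcf4 and Tcf12 were not whole multiples of 1 read, so their intervals are approximate. In this table too the median ratio rose with GC content, from -0.07 in genes of up to 40% to 0.06 above 60%, and the ratio of Id2 was far from the median of -0.01 of its class (45 to 50%).

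**Figure D4:**
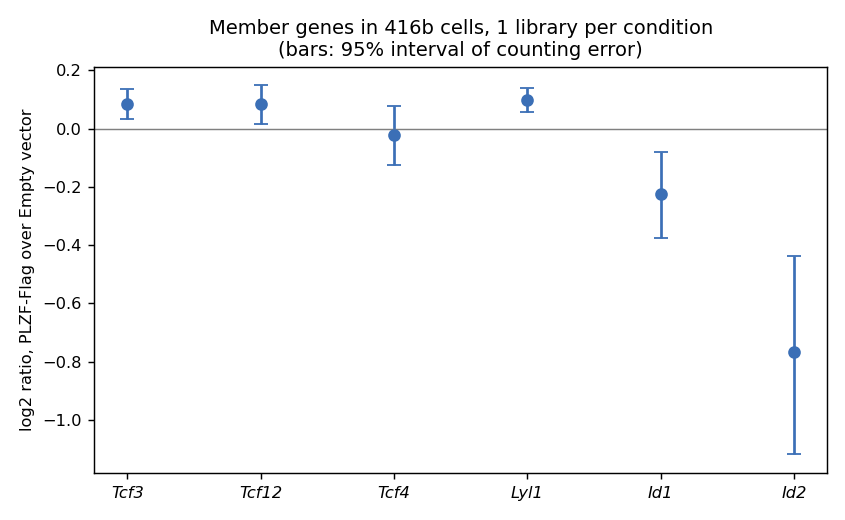
Log2 ratio of normalized counts (PLZF-Flag over Empty vector, vertical axis) of the 6 listed members in 416b cells, with bars for the 95% counting interval of 1 library per condition. Tcf3, Tcf12 and Lyl1 lie just above 0, Tcf4 on it, and Id1 (-0.23) and Id2 (-0.77) below it.

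Per kb of exon, Lyl1 was again the highest member in 416b cells, at 5391 with the Empty vector and 5769 with PLZF-Flag, followed by Tcf3 (1645 and 1743), Id1 (820 and 701), Tcf12 (259 and 274), and, changing places between the conditions, Id2 (103 and 60.3) and Tcf4 (65.9 and 64.9). Per kb of the median coding transcript, Tcf12 (1778 and 1884) and Tcf4 (980 and 965) lay above Id1 (909 and 777). Of the partners, Gata2 was at 12441 and 14121 normalized counts (0.18) and Tal1 at 6727 and 7518 (0.16), while Lmo2 was at 9766 and 9241 (-0.08). Gata1 had the highest ratio of this list (1.45, 0.66 to 2.36, 95% counting interval) at the low counts of 15.1 and 43.0. Ssbp2 had the lowest (-0.27, -0.38 to -0.16) at 1867 and 1549. The 12 complex partners with a mean of at least 10 had a median ratio of 0.06, the 8 co-regulators -0.04, the 12 other HLH genes 0.06, the 18 BMP and TGF-beta genes -0.02 and the 6 Id stability genes 0.06, against 0.00 for all genes. Of the lymphoid genes only 3 reached that mean.

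The E protein to Id balance was taken as the summed level per kb of Tcf3, Tcf4 and Tcf12 over that of Id1, Id2 and Id3. Id3 is not listed in 416b cells and was counted as 0 there. It was 4.96 and 6.98 in the WT libraries, which overlapped the 7.99 and 6.12 of the mutant. The mean log2 balance was higher by 0.25 in Zbtb16lu/lu, less than the pooled SD of 0.31 between libraries of a genotype. Its direction turned with the length used, as per kb of the median coding transcript the balance was 11.2 and 19.8 in WT against 16.8 and 12.0 in the mutant. In 416b cells it was 2.13 with the Empty vector and 2.74 with PLZF-Flag, a log2 difference of 0.36 (approximate 95% counting interval 0.22 to 0.50), and 4.61 and 5.98 per kb of the median coding transcript. Per kb of exon Id1 held the largest share of the Id sum in every library, and the values of the 2 tables, which were normalized separately, are not compared.

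**Figure D5:**
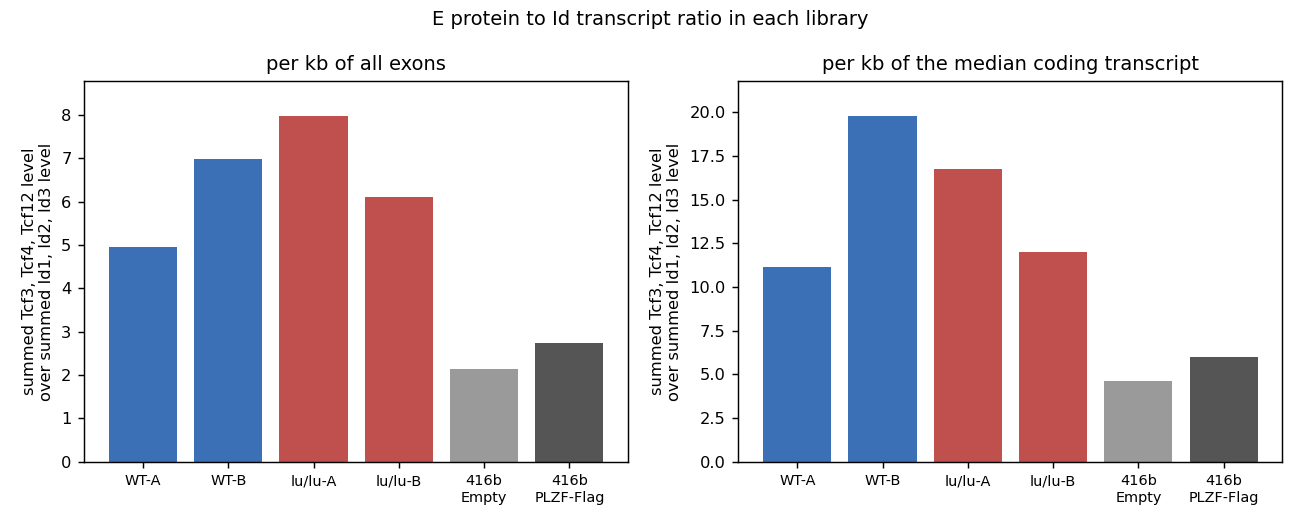
Ratio of summed E protein to summed Id transcript level (linear axis from 0) in each of the 6 libraries, per kb of all exons on the left and per kb of the median coding transcript on the right, with WT in blue, Zbtb16lu/lu in red and 416b in grey. Id3, not listed in 416b, counts as 0 there. The GMP genotypes overlap on both scales, and PLZF-Flag is above Empty vector on both (2.74 against 2.13 on the left).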

How the data were processed

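RNA-seq of GMPs (2 WT and 2 Zbtb16lu/lu libraries) and of 416b cells (1 Empty vector, 1 PLZF-Flag) was used. Samples of other assays were not analysed here. The labels give 1 sample per genotype, the methods speak of 3 RNA extractions, and 2 columns per genotype are in the table, so whether they come from separate animals is not known and p-values measure the spread between these libraries. The deposited signal values are normalized counts: per the labels and methods, the authors aligned reads to mm10 with Subread, counted them with featureCounts 1.5.0 and scaled them with DESeq2. The deposited tables also hold the authors' log2 values, log2 fold changes and p-values with their adjusted form, none of which was used.

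For GMPs, limma 3.58.1 (R 4.3.3) with an intensity trend was fitted to log2(normalized count + 1) of the 20531 genes with at least 10 in at least 2 libraries, adjusted after Benjamini-Hochberg at a threshold of 0.08. Fold changes are on that scale and understate those of low genes. As 100% of the GMP values were whole multiples of the value of 1 read (0.964 to 1.03) within 0.1, edgeR 4.0.16 (quasi-likelihood, TMM factors) and DESeq2 1.42.0 were run on the recovered reads of the same genes as alternatives. For 416b cells reads were recovered in the same way (84.3% and 85.5% of values whole within 0.1 of a read), ratios used a pseudocount of 1, and the 11835 genes whose mean reached 10 entered the list counts. A row without a gene name (0.00083% and 0.00075% of the values) was left out. Exon lengths, GC content and positions are from GENCODE M21 (GRCm38), with length and GC for 96.6% of GMP genes. Python 3.11.15 with scipy 1.17.1 was used.

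The members, lists and tests were chosen with earlier results of these data known. Beside the 7 members and Zbtb16, the genes named are the highest and lowest tested gene of a list by GMP fold change, genes needed for a marker check and the 2 list genes most like a member. Lmo2, Tal1, Gata2, Id4, Bmpr1a, Acvr1, Bmp4, Smad1, Smad5, Usp1, Notch1, Ebf1, Rag1 and Il7r were added for their roles after their values were seen.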

Additional observations from a re-analysis of the deposited data

How the results depend on the processing

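With every library kept, 0 genes and 0 members passed under each limma alternative (no low-value filter, a minimum mean of 100, a pseudocount of 0.1 or 10, equal totals, TMM factors, quantile normalization, length and GC offsets, no intensity trend, and a threshold of 0.05). On the recovered reads edgeR called 0 genes (2033 at an unadjusted p under 0.05) and DESeq2 called 220 genes, both with 0 members (lowest adjusted p 0.433 and 0.172, for Tcf3). DESeq2 gave 7563 genes, Id1 among them, no adjusted p. Leaving out WT-A, WT-B, lu/lu-B or lu/lu-A gave 4662, 2749, 1 and 64 genes and 5, 1, 0 and 0 members. Of 95 alternative values of the 6 tested members with an adjusted p, 85 kept their direction and side of the threshold, and 6 gained a call, each without 1 WT library. The other 4 turned direction: Lyl1 with the offsets (-0.031), Tcf4 without WT-B (0.16), and Id2 without WT-B (-0.19) and without lu/lu-B (-0.037). The filters, the intensity trend and the threshold of 0.05 do not enter a fold change, so under these settings no direction could turn. The stricter threshold could add no call either. Of the 6 differences between the A libraries, which have no test, Tcf4 (0.16) and Id2 (-0.59) turned direction. The cause was not tested. Without the filter Id3 had a log2 fold change of 1.68 (adjusted p = 0.645, limma), from 0 to 5 reads per library.

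All 24 alternative values of the 416b ratios (pseudocounts, equal totals, TMM) stayed within their counting intervals, and the largest move was 0.03. The log2 difference in E protein to Id balance in GMPs turned to -0.062 without division by length, to -0.16 without Id1 and to -0.066 per kb of the median coding transcript, was 0.69 between the A libraries, and ran from 0.0018 to 0.50 when 1 library was left out. In 416b cells it was 0.85 without Id1. The median coding transcript, leave-one-out and shared-tag values of the balance were chosen after seeing the data.

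No paired analysis was possible because replicate numbers are absent from the column names and 1 tag at most links the genotypes.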
